A study of Rattus norvegicus with 4 samples.

Results

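The genes described here are 9 members of the protein breakdown machinery of muscle: the ubiquitin ligase genes Trim63 and Fbxo32, the transcription factor gene Foxo3, and the autophagy and lysosome genes Map1lc3a, Map1lc3b, Gabarapl1, Sqstm1, Bnip3 and Ctsl. They were chosen by name, with earlier results of these data known. They were found on the array through the RefSeq accession of their probes, 9 of 26624 genes or unnamed accessions in all. Each of the 9 was well above background on enough arrays to be tested, among 13326 genes tested. Transcripts of skeletal muscle from male rats, 15 weeks of age, were measured on 4 one-colour arrays. Wild-type (WT) Wistar rats, sedentary by the study's design text, gave 2 arrays. SPORTS rats, a hyperactive mutant line on the Wistar background, gave 1 array from an exercised and 1 from a sedentary animal. The labels name neither the muscle sampled nor the kind or length of the exercise. Nor do they state whether separate animals gave the WT arrays, so a p-value here reflects the spread of these arrays alone, and that spread may be technical.

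Muscle removes proteins by tagging them with ubiquitin for the proteasome and by enclosing them in autophagosomes that fuse with lysosomes. FoxO transcription factors are known to switch on genes of both routes when muscle is denervated, fasted or unloaded, and Trim63 (MuRF1) and Fbxo32 (atrogin-1) are the ligase genes most used to mark that state. Proteins of the ATG8 family, which include the LC3 proteins and GABARAPL1, are attached to the growing autophagosome membrane, where receptors such as p62 (Sqstm1) and BNIP3 dock their cargo.

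All values below are log2 scaled signals, log2 processed signals from which the 75th percentile of the array was subtracted, so that 0 is the 75th percentile of an array. They are compared between arrays for 1 probe, never between probes. A ± is the standard error of the limma fit, and a gene was called at an adjusted p below 0.05. The exercised SPORTS array was unlike the other 3 over the whole table: against WT, 27.3% of all genes tested were called higher on it and 26.0% lower. In sedentary SPORTS against WT these shares were 2.82% and 3.45%. Between the WT arrays, 1.13% of genes were at least 2-fold apart. Before scaling, the exercised array was also the dimmest, with a 75th percentile of 864 beside 1096 and 1082 in WT and 1111 in sedentary SPORTS. Of its probes 46.0% were well above background, beside 48.7%, 48.9% and 50.3% in the same order. Of 10 skeletal muscle markers measured, 10 were well above background on each array. Of the 3 heart markers Nppa and Nppb were on none, and Myh6, the alpha myosin gene, was on all 4, at 8.33 and 8.33 in WT, 6.73 in exercised SPORTS and 7.81 in sedentary SPORTS. The exercised and the sedentary array each stand alone in their group, so the fit against WT takes its spread from the WT arrays and assumes that the SPORTS arrays vary like them. Exercised SPORTS against WT differs in both genotype and exercise, and these cannot be told apart in that comparison. A gene said to have risen or fallen was higher or lower than in WT, whichever of these it reflects.

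Both atrophy ligase genes were highest on the exercised SPORTS array and lowest on the sedentary one. Trim63, whose product ubiquitinates myofibrillar proteins, measured 0.81 and 0.74 in WT, 2.20 in exercised SPORTS and 0.41 in sedentary SPORTS. The exercised value thus lay far above the WT values and the sedentary value below both. Against WT, Trim63 rose by 1.42 ± 0.07 on the exercised array, or 2.68-fold (adjusted p = 0.00520, limma), and differed by -0.37 ± 0.07 on the sedentary one (adjusted p = 0.0818). Fbxo32 encodes the F-box subunit of a ligase whose targets include a translation initiation factor. Its values were 0.33 and 0.43 in WT, 1.42 in exercised SPORTS and -0.03 in sedentary SPORTS. Fbxo32 thus followed the same order as Trim63. Fbxo32 rose by 1.04 ± 0.08 on the exercised array, or 2.05-fold (adjusted p = 0.00799), and differed by -0.41 ± 0.08 on the sedentary one (adjusted p = 0.0817). The sedentary difference of each passed with a variance trend in the fit, and that of Fbxo32 also with normexp background correction. Between the SPORTS arrays, without a replicate of either, Trim63 was 1.79 and Fbxo32 1.45 higher on the exercised one.

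**Figure D1:**
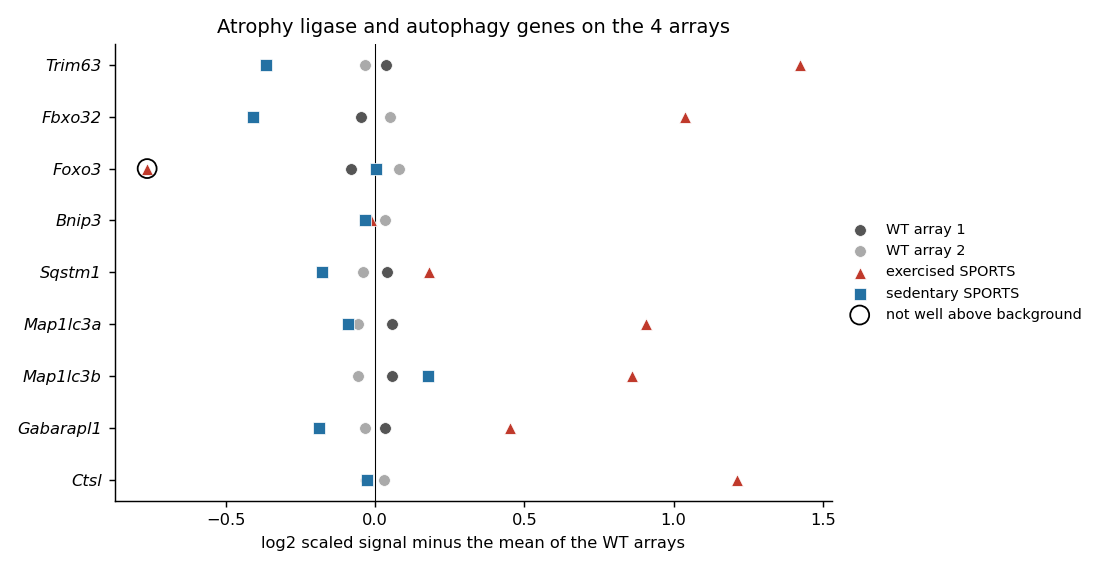
Log2 scaled signal of the 9 genes on each of the 4 arrays, drawn as the difference from the mean of the WT arrays. Grey circles are the WT arrays, the red triangle is the exercised and the blue square the sedentary SPORTS array, and the ringed point (Foxo3, exercised) was not well above background. Of the 9 genes, 7 have their highest value on the exercised array, beside 40.7% of all genes tested.

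The promoters of Trim63 and Ctsl, which rose most on the exercised array among the members with an entry in the promoter table, are shown beside that of Bnip3, which stayed level. The table, from RefSeq on build GRCr8, held 6 of the 9 members. It gives 250 bases before and 50 after each gene's start, of which the 250 before the start are printed, 5′ to 3′ on the strand of the gene. Trim63 lies at chr5:151816986-151817235 (plus strand), Ctsl at chr17:769854-770103 (plus strand) and Bnip3 at chr1:203154963-203155212 (minus strand). Capitals mark matches to the FoxO core GTAAACA, which reads TGTTTAC on the opposite strand, or to the E-box CACGTG, the core of the element that the lysosomal regulator TFEB binds.
Trim63: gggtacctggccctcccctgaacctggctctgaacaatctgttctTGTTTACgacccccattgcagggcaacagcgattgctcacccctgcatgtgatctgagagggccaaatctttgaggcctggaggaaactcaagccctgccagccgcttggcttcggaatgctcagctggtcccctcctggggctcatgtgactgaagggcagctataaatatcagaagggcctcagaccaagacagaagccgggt
Ctsl: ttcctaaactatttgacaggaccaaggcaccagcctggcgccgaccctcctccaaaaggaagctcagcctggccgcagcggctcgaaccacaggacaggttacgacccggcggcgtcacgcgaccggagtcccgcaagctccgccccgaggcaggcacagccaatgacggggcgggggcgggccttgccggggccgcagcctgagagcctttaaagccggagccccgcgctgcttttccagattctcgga
Bnip3: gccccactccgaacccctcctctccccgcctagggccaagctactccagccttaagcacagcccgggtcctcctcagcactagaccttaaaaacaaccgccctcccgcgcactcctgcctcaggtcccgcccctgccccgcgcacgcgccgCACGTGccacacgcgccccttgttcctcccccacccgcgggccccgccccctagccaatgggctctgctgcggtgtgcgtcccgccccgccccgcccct
The FoxO core was searched on both strands and the E-box reads the same on both, and the motifs do not overlap each other here. Trim63 holds 1 FoxO core, on the opposite strand, at position -205 from the start, and Bnip3 holds 1 E-box at -99. Ctsl holds neither, and of the 6 member promoters 4 hold neither. Over the whole window the FoxO core was found in 3.78% and the E-box in 6.42% of 33469 rat promoters. Each match describes letters in a window and was not tested as a binding site.

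Foxo3, the FoxO factor best known for driving the ligase and autophagy genes in muscle, was the 1 member that did not stay well above background throughout. It measured -3.07 and -2.91 on the WT arrays, -2.99 on the sedentary and -3.75 on the exercised SPORTS array, where the probe was not well above background. The sedentary value lay between the WT values and the exercised value below them all. Foxo3 fell on the exercised array (adjusted p = 0.0188) and was at least 1.36-fold lower than in WT, a bound that sets the dim value at the lowest signal the scanner called well above background. The bound holds for the main background method only. With normexp background correction the difference was -0.19, which is smaller than the bound. The call was lost with normexp and with no filter on dim genes. On the sedentary array Foxo3 differed by 0.00 ± 0.10 from WT (adjusted p = 0.982).

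The 3 ATG8 family members were called higher on the exercised array by the probe used for each, and the other probe of Gabarapl1 had the opposite sign there. Map1lc3a, which encodes LC3A, measured 5.12 and 5.0 in WT, 5.97 in exercised SPORTS and 4.97 in sedentary SPORTS. The sedentary value was just below the WT values and the exercised value clear of them. Map1lc3a rose by 0.91 ± 0.08 on the exercised array (adjusted p = 0.0105) and differed by -0.09 ± 0.08 on the sedentary one (adjusted p = 0.490). Map1lc3b, which encodes LC3B, the form most used to follow autophagosomes, measured 4.61 and 4.49 in WT, 5.41 in exercised SPORTS and 4.73 in sedentary SPORTS. It was the 1 member with both SPORTS arrays above both WT arrays. Map1lc3b rose by 0.86 ± 0.09 on the exercised array (adjusted p = 0.0115), and differed by 0.18 ± 0.09 on the sedentary one (adjusted p = 0.253). The other probe of Map1lc3b, a dimmer one, was also higher on the exercised array, by 0.44, but lower by 0.38 on the sedentary array, so that the position of sedentary SPORTS relative to WT turned with the probe. Both probes of Map1lc3b were higher on the exercised than on the sedentary array, by 0.68 and 0.82.

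Gabarapl1, an ATG8 gene of the GABARAP branch, measured 5.30 and 5.23 in WT, 5.72 in exercised SPORTS and 5.08 in sedentary SPORTS. It rose by 0.45 ± 0.07 on the exercised array (adjusted p = 0.0243), a call that was lost with quantile normalization, with no filter on dim genes and with the mean over its probes. The other probe of Gabarapl1 was well above background on all 4 arrays and differed by -0.10 on the exercised array. On the sedentary array the probes of Gabarapl1 gave -0.19 and -0.18. The probes thus gave nearly the same sedentary difference and opposite exercised differences.

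**Figure D2:**
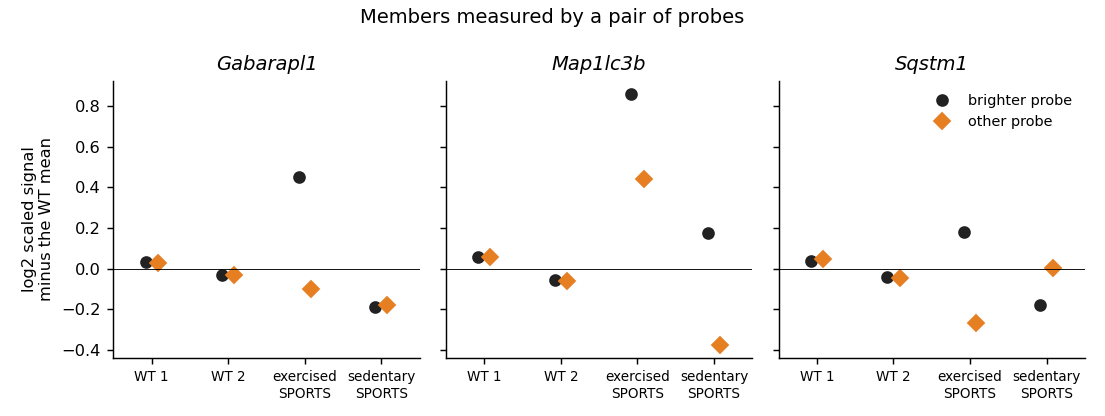
Log2 scaled signal of both probes of Gabarapl1, Map1lc3b and Sqstm1 on each array, minus the WT mean of the same probe. Circles are the brighter probe, whose values are used, and diamonds the other probe. Centring each probe on its own WT mean draws the probes together on the WT arrays. On the exercised array they have opposite signs for Gabarapl1 and Sqstm1.

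Of the cargo receptor genes among the members, Bnip3 was nearly level with the main scaling, and Sqstm1 varied with the probe and the scaling. Sqstm1, whose product p62 carries ubiquitinated cargo into autophagosomes, measured 4.71 and 4.63 in WT, 4.85 in exercised SPORTS and 4.49 in sedentary SPORTS. The SPORTS arrays lay on opposite sides of WT by similar amounts, at 0.18 ± 0.07 for the exercised (adjusted p = 0.143) and -0.18 ± 0.07 for the sedentary array (adjusted p = 0.209). With scaling by the median, Sqstm1 passed on the exercised array with a difference of 0.41, and with quantile normalization the difference was -0.01. The other Sqstm1 probe, designed to another of its transcripts, differed by -0.27 on the exercised array and by 0.00 on the sedentary one. Bnip3, a mitophagy receptor gene induced by FoxO3 and by low oxygen, measured 5.79 and 5.86 in WT, 5.81 in exercised SPORTS and 5.79 in sedentary SPORTS. These values spanned 0.07 in all, and the WT arrays were as far apart as any others. The difference from WT was -0.01 ± 0.07 on the exercised array (adjusted p = 0.891), and it became 0.21 with scaling by the median.

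Ctsl, which encodes the lysosomal protease cathepsin L and is among the genes induced early in atrophying muscle, measured 3.58 and 3.64 in WT, 4.82 in exercised SPORTS and 3.58 in sedentary SPORTS. The sedentary value equalled the lower WT value to this precision, and the exercised value stood alone. Ctsl rose by 1.21 ± 0.07 on the exercised array, or 2.32-fold (adjusted p = 0.00565), and differed by -0.03 ± 0.07 on the sedentary one (adjusted p = 0.789).

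**Figure D3:**
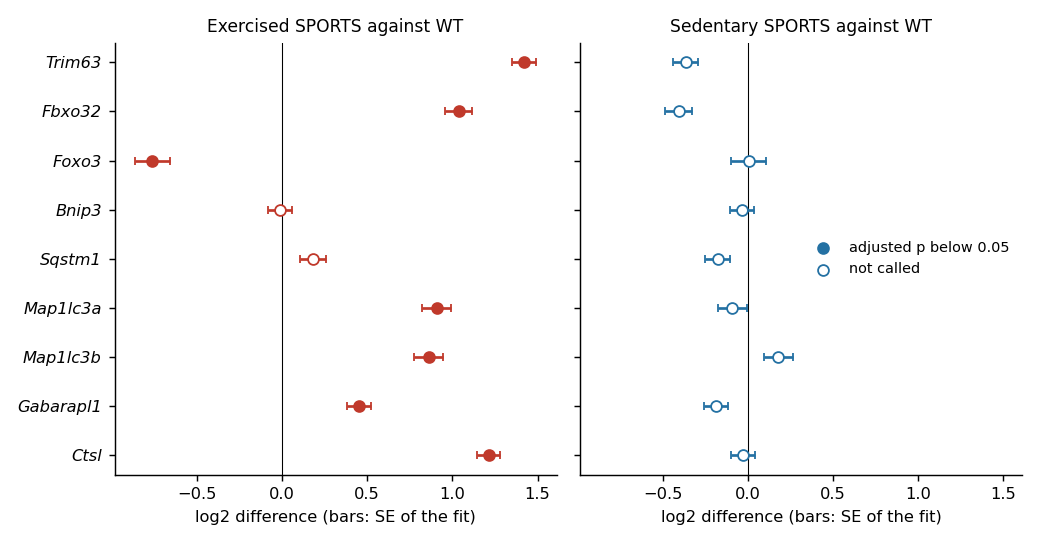
Difference from WT on the log2 scale for the exercised (left) and the sedentary SPORTS array (right), with the standard error of the 3-group fit as bars and filled points for an adjusted p below 0.05. On the exercised array 6 genes were called higher and Foxo3 lower, and on the sedentary array no point is filled.

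The exercised array lay above both WT arrays and the sedentary array below both for 5 of the 9 members (Trim63, Fbxo32, Map1lc3a, Gabarapl1 and Sqstm1), beside 19.4% of all genes tested. Over the 9 members, exercised SPORTS against WT gave 6 called higher and 1 lower, beside the 27.3% and 26.0% of all genes given above. The median difference of the members was 0.86, and that of all genes tested 0.00. Scaling by the median in place of the 75th percentile moved all differences on the exercised array by 0.23 and the share of higher among the calls over all genes from 51.2% to 69.0%. With that scaling 7 members were called higher and 1 lower. The scanner software's own error per array was 0.144 to 0.146 on the log2 scale for the 8 members other than Foxo3 and 0.225 to 0.413 for Foxo3. That error is technical and holds no spread between animals.

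In sedentary SPORTS against WT, 0 of 9 members were called by limma, beside 6.27% of all genes. At an unadjusted p under 0.05 there were 2 of 9 members (Trim63 and Fbxo32), a smaller share than the 4839 of 13326 genes tested. The member differences ran from -0.41 to 0.18 with a median of -0.09, and the median of all genes was -0.01.

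Exercised against sedentary SPORTS, which differ by their labels in exercise within the genotype, was compared by fold alone because each has 1 array. Of the 9 members 4 were at least 2-fold higher on the exercised array (Trim63, Fbxo32, Ctsl and Map1lc3a) and 0 lower, beside 9.11% of all genes higher and 12.8% lower. Map1lc3a lay at the threshold, with a difference of 1.0. The member median was 0.68 and that of all genes 0.03. Scaling by the median raised these differences by 0.19 and turned the share of higher among all genes past 2-fold from 41.6% to 55.1%, with 4 members again past 2-fold. With quantile normalization and with normexp background correction 3 members were, as Map1lc3a differed by 0.81 and 0.87.

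When both SPORTS arrays were set against both WT arrays, which asks for a difference of genotype shared by the exercised and the sedentary animal, 0 of 9 members were called by limma, beside 0% of all genes. At an unadjusted p under 0.05 there were 0 of 9 members and 982 of 13326 genes tested. The member differences ran from -0.38 for Foxo3 to 0.59 for Ctsl, with adjusted p from 0.768 to 0.999. Without the sedentary SPORTS array 7 members were called, and without the exercised array 0 were and the difference turned sign for 7 of the 9 members. Both SPORTS arrays lay above both WT arrays for Map1lc3b alone and below them for 0 members, beside 21.4% and 22.3% of all genes. By at least 2-fold, both SPORTS arrays lay above for 0 members and below for 0, beside 0.645% and 1.28% of all genes.

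Other genes of the same routes were read from 7 lists, also chosen with earlier results of these data known. The lists held 117 genes, of which 106 had a named probe and 102 were tested. On the exercised array 46 of the 102 were called higher and 22 lower against WT, with a median difference of 0.26. The 27.3% and 26.0% of all genes tested stand beside this and beside each count of calls on the exercised array below. On the sedentary array 1 was higher and 1 lower, beside 2.82% and 3.45% of all genes tested. The lists differed in how their calls split.

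**Figure D4:**
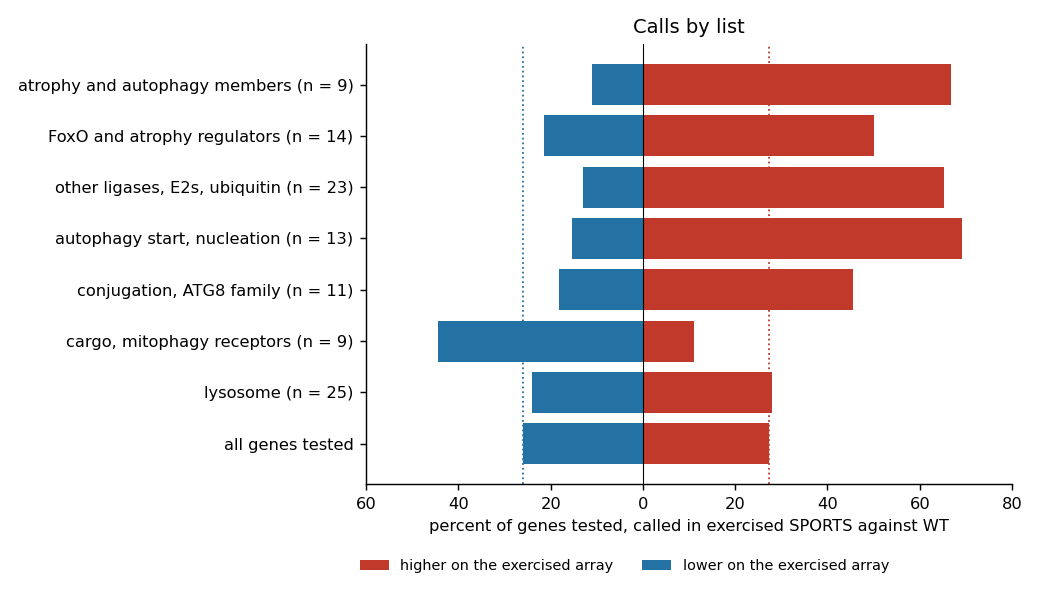
Percent of the genes tested in each list that were called higher (red, to the right) or lower (blue, to the left) in exercised SPORTS against WT, without the calpain and caspase list, with the number tested in brackets. Dotted lines continue the shares over all genes tested, 27.3% higher and 26.0% lower, and the cargo and mitophagy receptors have more genes lower than higher.

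Among other ubiquitin ligase, conjugating enzyme and ubiquitin genes, 15 of 23 rose in exercised SPORTS and 3 fell, with a median of 0.56. Fbxo31, another F-box gene, rose by 1.65 ± 0.08 (adjusted p = 0.00523). The ubiquitin-conjugating enzyme genes Ube2d1 and Ube2g1 rose by 1.35 ± 0.07 and 1.28 ± 0.07 (adjusted p = 0.00523 and 0.00580). Traf6, a ligase gene needed for atrophy in mouse muscle, measured -2.96 and -2.78 in WT, -1.36 in exercised SPORTS and -1.95 in sedentary SPORTS, and rose by 1.51 ± 0.11 on the exercised one (adjusted p = 0.00734). Those that fell were Fbxo30, Fbxo21 and Trim55, named to complete the count after their values were seen. Trim55 is the gene of MuRF2, a close relative of the Trim63 product.

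Of 13 genes that start and shape the autophagosome, 9 rose on the exercised array and 2 fell, with a median of 0.80. Dapk1, a kinase gene that acts on Beclin 1, measured -1.38 and -1.56 in WT, 0.43 in exercised SPORTS and -0.57 in sedentary SPORTS. It rose by 1.91 ± 0.11 on the exercised array (adjusted p = 0.00569). The initiating kinase gene Ulk2 rose by 1.15 ± 0.06, Vmp1, which encodes a membrane protein of the growing autophagosome, by 1.14 ± 0.08, and Wipi2, whose product recruits the LC3 conjugation machinery, by 1.04 ± 0.10 (adjusted p = 0.00549, 0.00698 and 0.0114). Rb1cc1, which encodes the ULK complex subunit FIP200, rose by 0.75 ± 0.07 on the exercised array (adjusted p = 0.0108) and differed by -0.65 on the sedentary one (adjusted p = 0.0514). In the conjugation list 5 of 11 rose and 2 fell, among them the LC3 protease gene Atg4a, up by 1.29 ± 0.08, the conjugation enzyme gene Atg7, up by 1.12 ± 0.07, and Atg10, down by 0.53 (adjusted p = 0.00595, 0.00598 and 0.0159). Atg4d, another LC3 protease gene, rose by 0.55 ± 0.08 (adjusted p = 0.0200). Atg4c was not well above background on either SPORTS array, and Atg12 differed by -0.62 on the sedentary array (adjusted p = 0.0533).

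Of 9 other cargo and mitophagy receptor genes tested, 1 rose and 4 fell in exercised SPORTS, with a median of -0.18. Nbr1, a receptor gene related to Sqstm1, measured -0.38 and -0.42 in WT, -1.33 in exercised SPORTS and -0.80 in sedentary SPORTS, and fell by 0.93 on the exercised one (adjusted p = 0.00696). Optn, the optineurin gene, fell by 0.84 and Phb2, a mitochondrial inner membrane receptor gene, by 0.42 (adjusted p = 0.00784 and 0.0216). The fourth was Bag3, named to complete the count after its values were seen. Stbd1, a receptor gene for glycogen, rose by 1.62 ± 0.07 (adjusted p = 0.00459).

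Of 25 lysosome genes 7 rose and 6 fell in exercised SPORTS, close to the 27.3% and 26.0% of all genes tested. Their median was 0.15, and the cathepsin genes went both ways. The cathepsin D gene Ctsd rose by 0.74 ± 0.06 (adjusted p = 0.00913). Ctsk, which encodes the collagen-degrading cathepsin K, fell by 2.12 (adjusted p = 0.00426), and Ctss, a cathepsin gene of antigen-presenting cells, fell by 1.91 (adjusted p = 0.0150). Ctss measured 1.13 and 0.71 in WT, -0.99 in exercised SPORTS and 1.88 in sedentary SPORTS. Glb1, the beta-galactosidase gene, fell by 1.13 (adjusted p = 0.00741). Ctsz, which encodes cathepsin Z, rose on the sedentary array by 1.02 (adjusted p = 0.0453).

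Among FoxO and atrophy regulators 7 of 14 rose on the exercised array and 3 fell, with a median of 0.49. Eif4ebp1, which encodes a repressor of translation initiation, rose by 1.19 ± 0.06 (adjusted p = 0.00538). Ddit4, an inhibitor gene of the mTOR pathway induced by stress and glucocorticoids, fell by 1.54, and Myog, the myogenin gene, by 1.26 (adjusted p = 0.00523 and 0.00512). The metallothionein gene Mt2A measured 2.26 and 1.19 in WT, 3.92 in exercised SPORTS and 3.58 in sedentary SPORTS, and was called on neither (adjusted p = 0.0596 and 0.138), with its WT values 1.07 apart. Acvr2b, the gene of a myostatin receptor, fell by 1.17 on the sedentary array (adjusted p = 0.0383). Foxo1 had no probe named by accession. Among the calpain and caspase genes, Capn1, a calpain gene, rose on the exercised array by 1.47 ± 0.06 and Cast, which encodes the calpain inhibitor, by 0.34 ± 0.07 (adjusted p = 0.00468 and 0.0409). Casp9, a caspase gene called lower, was not well above background on the exercised array. By the main background method it was at least 1.58-fold lower than in WT, a bound not computed with other methods. Capn3 differed by -0.09 on the exercised and 0.15 on the sedentary array.

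Markers of fibre type and of some other cell types differed on the exercised array as well. Of 9 fast fibre markers tested, 8 were called higher on it and 0 lower, with a median of 1.22 against WT, and of 9 slow fibre markers 9 were lower, with a median of -2.42. The IIb myosin gene Myh4 measured 1.03 and 1.41 in WT, 8.63 in exercised SPORTS and -2.56 in sedentary SPORTS, while the slow myosin gene Myh7 measured 8.36, 8.40, 6.16 and 8.31 in the same order. The fast IIa myosin gene Myh2 was listed with the skeletal muscle markers and not with the fast ones. It went the other way on the exercised array, with 6.24, 6.34, 5.86 and 2.65 in that order and an exercised difference of -0.43. The scaled signals of the fast markers summed to 1126 and 1141 for WT, 3129 for exercised and 364 for sedentary SPORTS, and those of the slow markers 2090, 2036, 446 and 1962. On the sedentary array 4 of the 9 fast markers were lower, beside 3.45% of all genes tested. The order exercised above WT above sedentary, held by 5 of the 9 members and by 19.4% of all genes tested, was also that of the fast marker sum. It was not that of each fast marker. The part of fibre type in the members' differences was not tested.

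Macrophage and monocyte markers were low on the exercised array, where Ctsl was high. On the sedentary array their sum was highest, while Ctsl was level with WT. On the exercised array 6 of 8 tested were called lower, at a median of -1.49, and on the sedentary array 0 were called, with a median of 1.01. Summed over the 8 markers tested, the scaled signal came to 54.3 and 37.3 for WT, 18.3 for exercised and 84.6 for sedentary SPORTS. The brightest probes weigh most in such a sum. Of the 10 markers measured, 6 were well above background on the exercised array and 10 on the sedentary one, and the defining genes Adgre1 and Csf1r were not on the exercised array. Ctss followed the same order as this sum. Of 7 fibroblast and tendon markers 7 were lower on the exercised array (summed signal 242 and 230 in WT, 57.2 in exercised and 164 in sedentary SPORTS), as were 3 of 4 adipocyte markers (in the same order 21.0, 26.0, 9.90 and 18.8). The endothelial markers tested did not move together on the exercised array, with differences of -2.09 for Cdh5, -0.03 for Pecam1 and 0.20 for Kdr. Red blood cell markers had a median of -0.45 there and -0.84 on the sedentary array. In bulk muscle, fewer cells of a type and less RNA per cell cannot be told apart, and the part of these cells in the lysosome genes' differences was not tested.

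**Figure D5:**
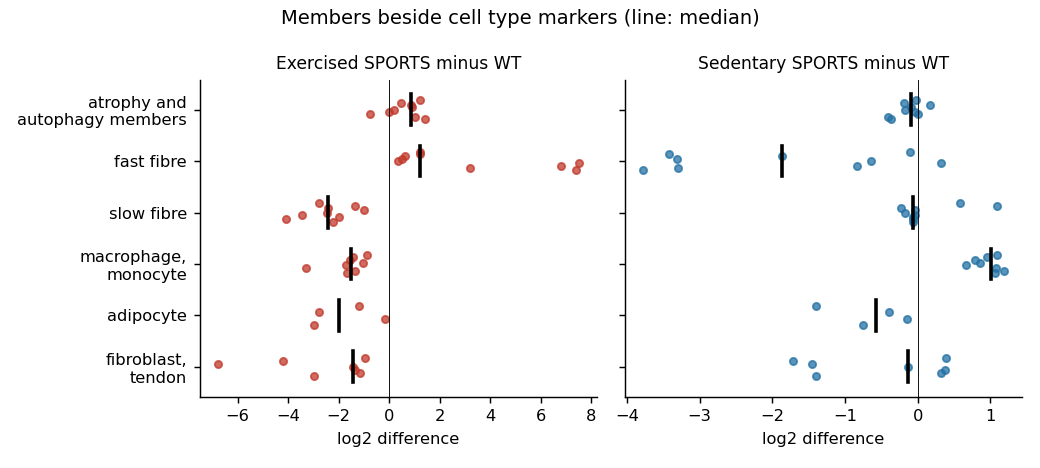
Difference from WT on the log2 scale for the 9 members and for the tested markers of fast and slow fibres, macrophages and monocytes, adipocytes, and fibroblasts and tendon, on the exercised (left) and sedentary SPORTS array (right), with axes of different range. Each point is a gene and each black line the median of its list. In the left panel the fast fibre and member medians lie above 0, and the points of the other 4 lists lie below 0.

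Genes with the most similar pattern over the 4 arrays were sought for the 4 members whose values spanned at least 1 on the log2 scale, among 7532 named genes well above background on all arrays, by the root mean square difference of values centred on each gene's mean. Nearest to Trim63 was Slc4a4, a bicarbonate cotransporter gene, at a distance of 0.0072, followed by the corepressor gene Tle1 at 0.037. For Fbxo32 they were Zfp428 at 0.034 and Cacna1s, the gene of the muscle calcium channel that senses voltage, at 0.042. For Map1lc3a they were Atp2c1, a Golgi calcium pump gene, at 0.027 and Park7 at 0.030, and for Ctsl C19h16orf87 at 0.011 and C6h14orf28 at 0.028. With 4 arrays, of which 1 carries most of the variation, close matches are a description of these arrays only.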

How the data were processed

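RNA from skeletal muscle was labelled with Cy3 and hybridised to one-colour arrays, per the labels' protocols. The scanner software was Agilent Feature Extraction 10.7.1.1, per the submitters' processing notes. The deposited intensity values are processed signals, background-subtracted and detrended within each array and not scaled between arrays, per the file headers. All 4 arrays lay on 1 slide, so no batch could be compared, and the number of arrays limits the precision.

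Spots flagged as outliers and control spots were left out, spots of a probe were averaged on the log2 scale, and each array's 75th percentile was subtracted. Of 30367 probes 352 were dropped for flags. Accessions were matched to RefSeq symbols (GRCr8), which named 59.4% of the probes. The probe with the highest mean stood for its gene, and no probe used was saturated. Genes well above background on at least 2 arrays were tested. limma 3.58.1 in R 4.3.3 gave the p-values (two-sided, Benjamini-Hochberg adjustment over all genes tested). There were 2 residual degrees of freedom for SPORTS against WT and 1 in the 3-group fit. The fit was also run on simulated data in which all arrays had the spread of the WT arrays. That run cannot check whether the SPORTS arrays vary like them. The authors' deposited table holds log2 values centred on each probe's median. Its differences between arrays followed those used here with r = 1 over 30015 probes, and it served as an alternative, beside other scalings, background corrections, filters, probe rules and arrays left out.

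The members and gene lists were chosen with earlier results of these data known. The text names all 9 members, per pathway list the 4 genes farthest from WT on the exercised and the 2 on the sedentary array, the 2 nearest genes by pattern of each member that varied, and Myh4 and Myh7. Myh2 and the endothelial markers were named after their values were seen. Planned comparisons of protein sequences were not run, as protein sequences were not used here. A gene of the calpain and caspase list is not reported here.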

Additional observations from a re-analysis of the deposited data

Results flagged for a closer look

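For 5 of the 9 members the exercised SPORTS array lay above both WT arrays and the sedentary SPORTS array below both, beside 19.4% of all genes tested. Each SPORTS state has 1 array, and the difference between the states was not tested. Against the WT mean, Trim63 differed by 1.42 on the exercised and -0.37 on the sedentary array, and Fbxo32 by 1.04 and -0.41. Map1lc3a differed by 0.91 and -0.0925, Gabarapl1 by 0.45 and -0.19, and Sqstm1 by 0.18 and -0.18. The other probes of Gabarapl1 and Sqstm1 did not share this pattern, with exercised differences of -0.10 and -0.27. For Map1lc3a the sedentary distance from WT is smaller than the distance of 0.11 between the WT arrays.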

How the results depend on the processing

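No paired analysis was possible because the labels give no replicate numbers shared by the groups. In exercised SPORTS against WT, Trim63, Fbxo32, Map1lc3a, Map1lc3b and Ctsl were called higher in all alternatives that gave a test, and the count of members called was within 1.5 times the reported one in each. In SPORTS against WT, quantile normalization and normexp each called 1 gene, and leaving out 1 array gave 0 to 7097 genes and 0 to 7 members (836 genes without the exercised SPORTS array). For sedentary SPORTS against WT, 836 genes became 2816 under a variance trend, 2170 if all 4 arrays had to be well above background, 2110 under normexp, 1611 under a floor for dim values and 0 unfiltered. Members called there became 1 under normexp and 2 under the trend. Between the SPORTS arrays, 2920 genes at least 2-fold apart became 4887 unfiltered. The cause was not tested, except that filters change the genes tested.

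Leaving out 1 array moved the SPORTS against WT difference from -0.37 to 1.42 for Trim63, from -0.41 to 1.04 for Fbxo32, from -0.7639 to 0.0039 for Foxo3, from -0.0578 to 0.0109 for Bnip3, from -0.18 to 0.18 for Sqstm1, from -0.0925 to 0.91 for Map1lc3a, from -0.19 to 0.45 for Gabarapl1 and from -0.0287 to 1.21 for Ctsl. These ranges are set by the exercised and the sedentary array, except for Bnip3, where they are set by the WT arrays. Other small differences also changed sign. In SPORTS against WT, Sqstm1, at 0.0004, became -0.0991 under quantile normalization, -0.0306 under normexp, -0.0024 in the authors' value table and -0.0661 as a mean over probes. Bnip3 became 0.10 under median scaling, and Gabarapl1 -0.0041 as a mean over probes. In exercised SPORTS against WT, Bnip3 became 0.21 under median scaling, and Sqstm1 -0.0129 under quantile normalization and -0.0434 as a mean over probes. In sedentary SPORTS against WT, Ctsl became 0.0018 under median scaling, Foxo3 -0.0219 under normexp and Map1lc3b -0.0993 as a mean over probes. Among the members, only Foxo3 on the exercised array was not well above background, so its value there is a bound, and only for the main background method.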
